A study of Drosophila melanogaster with 10 samples.

Results

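The genes described here are 32 ribosome biogenesis and nucleolar genes of Drosophila melanogaster, out of 7987 genes in the deposited table, and all 32 were found there and passed the filter on low values. They were chosen by name. The study had listed 16 of them among the transcripts that ap > Yki+NelfAi discs had more of than ap > GFP discs, so their values in that comparison chose them and are given without a test. The study also used the ap > Yki discs in drawing up its lists, so the ap > Yki values of listed members may not be independent of the choice. The other 16 (the box C/D and H/ACA core proteins, RNA polymerase I genes, further assembly factors and nucleolar proteins) were added by function. By role, 4 members belong to RNA polymerase I, 4 to the snoRNP core, 10 to assembly of the small ribosomal subunit, 10 to assembly of the large subunit and 4 are other nucleolar proteins.

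Ribosomes are built in the nucleolus, where RNA polymerase I transcribes the ribosomal RNA precursor. Small nucleolar ribonucleoproteins (snoRNPs) modify this precursor and guide its cleavage, and assembly factors, among them helicases, GTPases and kinases, fold it onto ribosomal proteins and carry the subunits to the cytoplasm. In the fly these genes are known as a growth programme, many of them driven by Myc (the gene dm), and their supply sets how much protein a growing imaginal disc cell can make.

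RNA-seq was carried out on wing imaginal discs from larvae of the third instar, in 4 genotypes. Every genotype carried UAS-GFP and the temperature-sensitive Gal4 inhibitor Gal80ts, with Gal4 expressed under apterous (ap) in the dorsal compartment. The control, ap > GFP (2 libraries, numbered 1 and 3), expressed only GFP, from an additional copy of the transgene that the other genotypes lacked. An RNAi construct against Nelf-A, a subunit of the negative elongation factor that holds RNA polymerase II near promoters, was added in ap > NelfAi (2 libraries, numbered 1 and 2). The growth-promoting coactivator Yorkie was added in ap > Yki (3 libraries), and both were added in ap > Yki+NelfAi (3 libraries). The labels describe the control and ap > NelfAi discs as wild type tissue, ap > Yki as mild overgrowth and ap > Yki+NelfAi as neoplastic overgrowth, and the last is called tumorous below. RNA came from pooled whole discs, although the driver acts only in the dorsal compartment. In such bulk tissue fewer cells of a type and less RNA per cell cannot be told apart. The libraries held 6990931 to 13065642 reads on genes.

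The value given for a gene in a library is the deposited one, its reads divided by a factor of the library, so it compares libraries but not genes of different length. A difference is a log2 fold change on log2(value + 0.5), with its standard error from limma, and a gene is called where its Benjamini-Hochberg adjusted p over 7858 tested genes is under 0.05 and the change is at least 1.5-fold. Over the members 41 to 22799 reads lay behind a single value. The discs expressed their defining genes, with ap, vg, nub, sd, wg, en and hh adding up to 264 to 598 in every library. Of these, vg, nub, en and hh were lower in each tumorous library than in both controls, with means of 21.5, 18.1, 3.44 and 7.42 against 74.7, 58.3, 13.9 and 14.9, and ap, sd and wg were higher. Markers of other tissues differed in level between the libraries. The 5 salivary glue genes summed to 63.7 to 308 in ap > GFP, 48.2 to 159 in ap > NelfAi, 3.25 to 12.5 in ap > Yki and 0.379 to 3.84 in the tumorous libraries. The 7 muscle genes summed to 272 to 545, 242 to 1114, 91.0 to 140 and 38.2 to 57.3 in the same order. The sum over 5 tracheal genes went the other way, at 587 to 849 in ap > GFP, 507 to 652 in ap > NelfAi, 1014 to 1331 in ap > Yki and 1170 to 1318 in the tumorous libraries. That sum is mostly verm and serp, and the 5 genes did not move together. The btl mean was 1.91 in ap > GFP, 7.03 in ap > Yki and 0.562 in the tumorous libraries, and the trh mean 18.3, 16.9 and 26.0. Hemocyte markers summed to 11.6 to 60.3 and neuronal ones to 4.11 to 20.7 over all libraries. Their part in the differences below was not tested. The ap > NelfAi libraries differed from each other with transcript length: the rank correlation between a gene's length and its deviation in that library was -0.66 in ap > NelfAi 1 and 0.49 in ap > NelfAi 2 over 7755 genes, and 0.47 in ap > Yki 3, against -0.21 to 0.29 in the other 7. Nelf-A itself stood at 40.4 and 36.0 in ap > GFP, 28.1, 31.9 and 39.4 in the ap > Yki libraries and 17.1, 15.8 and 16.9 in the tumorous ones, but at 11.4 and 32.9 in ap > NelfAi. The library labelled ap > NelfAi 2 was thus near the control level of the targeted gene, and results that rest on it are also given without it. The other, ap > NelfAi 1, is the one with the strongest length trend.

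Over the 10 libraries most members were close to the control in ap > Yki and higher in each tumorous library, which for the 16 listed members is what they were chosen for. The median difference from the ap > GFP mean was 0.43, 0.35 and 0.35 in the tumorous libraries over the 16 members added by function, and 0.90, 0.83 and 0.87 over the listed ones. For the added members it was 0.11, -0.01 and -0.04 in the ap > Yki libraries and 0.27 and -0.07 in those of ap > NelfAi. The median over the 32 members of the log2 difference from the ap > GFP mean was 0.72, 0.68 and 0.72 in the tumorous libraries. It was 0.18, 0.13 and 0.09 in the ap > Yki libraries and -0.07 and 0.07 in the control libraries themselves. In ap > NelfAi it was 0.43 in library 1 and -0.05 in library 2, so these libraries bracket the range from the control to near the tumorous genotype. Over all genes tested the same median stayed between -0.02 and 0.05. The number of members above their control mean was 31, 29 and 32 in the tumorous libraries, 24, 20 and 19 in those of ap > Yki, and 28 and 14 in those of ap > NelfAi.

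**Figure D1:**
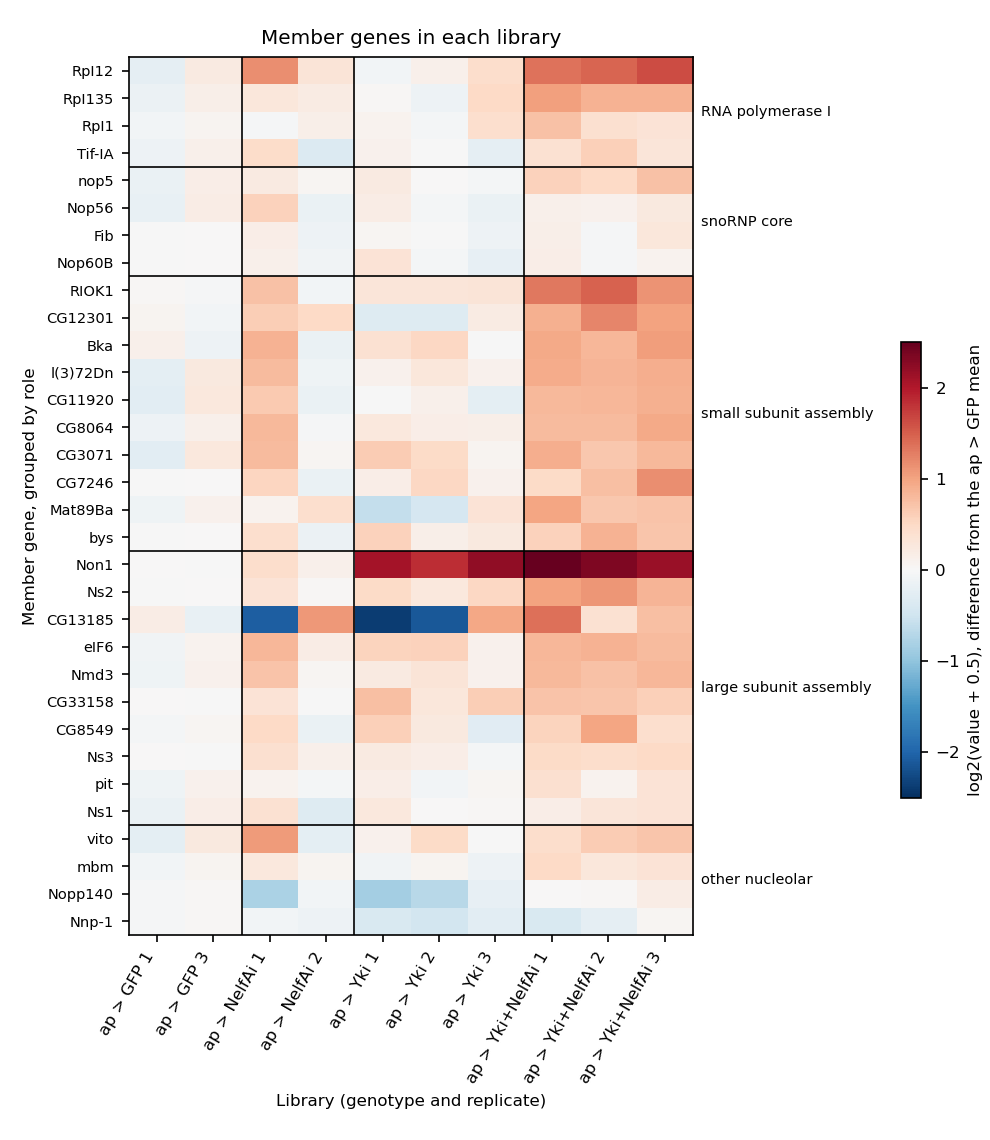
Each row is a member gene, grouped by role, and each column a library. Colour gives log2(value + 0.5) minus the ap > GFP mean of that gene, from blue (lower) through white to red (higher). The tumorous columns are red in nearly every row, with medians of 0.68 to 0.72, Non1 stands out in both genotypes with Yki, and CG13185 and Nopp140 do not follow the other rows.

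The members also differed among themselves in level. Per kilobase of transcript, the ap > GFP mean was highest for Non1 (77.6), Nop60B (65.7), Nop56 (49.3) and nop5 (40.02) and lowest for CG13185 (0.963), RIOK1 (1.38) and CG7246 (2.25). As a description, each member's Pearson correlation with the mean z-score of all members, itself included, over the 10 libraries was highest for CG8064 (0.98), Nmd3 (0.97) and l(3)72Dn (0.96). It was lowest for Nnp-1 (-0.01), CG13185 (0.18), Nopp140 (0.21) and Nop60B (0.41). Outside the list, the genes most like the members by the same measure were CG2982 (0.98), CG3862 (0.97) and CG9065 (0.97). CG9065 had a mean of 8.64 ± 1.37 (SD) over the 2 control libraries, 13.3 ± 2.68 over the 3 ap > Yki libraries and 33.9 ± 4.39 over the 3 tumorous ones, and 24.3 and 9.19 in ap > NelfAi. These correlations share the libraries and their depth, and the libraries fall into genotypes, so they carry no test.

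Tumorous discs were compared with ap > Yki discs to see what the RNAi construct against Nelf-A added to Yki. The yki transcript was not constant between them: it read 2637, 3395.5 and 4007 in the ap > Yki libraries and 8143, 11377 and 9925 in the tumorous ones (log2 difference 1.56, SE 0.315, adjusted p = 0.00905 by limma). More Yki and less Nelf-A cannot be told apart in what follows. The difference was positive for all 32 members, whereas 51.3% of all genes had a higher mean in the tumorous libraries, and the median was 0.47 over the members and 0.02 over all genes. Of the members 6 were called higher and 0 lower: RpI12, CG12301, Mat89Ba, RIOK1, CG11920 and RpI135. Over all genes 7.20% were called higher and 10.2% lower. In 19 members every tumorous library lay above every ap > Yki library (21.8% of all genes), and in 0 members did every one lie below (21.6%). This comparison shares its tumorous libraries with the one on which 16 members had been listed. The paper's lists held genes raised only in tumorous discs, or raised further there than with Yki alone. The ap > Yki values may thus have entered the choice of these 16, whose p-values here are not independent of it. Of those 16, 4 were called, with a median of 0.62, and of the 16 added by function 2 were called, with a median of 0.37.

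Genes of RNA polymerase I, the enzyme that makes the ribosomal RNA precursor, held 2 of the 6 calls. RpI12 (Polr1H in the current annotation, dm6 3R:21777203-21777847) encodes a small zinc-ribbon subunit of this polymerase. It was measured at 2.62 and 3.78 in ap > GFP, 7.63 and 4.04 in ap > NelfAi, 2.96, 3.51 and 4.46 in the ap > Yki libraries and 8.82, 9.46 and 10.8 in the tumorous ones. Every tumorous library was above every other library, and the next highest was ap > NelfAi 1. The log2 fold change against ap > Yki was 1.31 (SE 0.259, adjusted p = 0.00824 by limma), and the call was kept in all 10 fits that left out 1 library.

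RpI135 (Polr1B, dm6 2L:404285-407969) encodes the second largest subunit, which forms the active centre with RpI1. It stood at 15.0 and 18.7 in ap > GFP, 20.4 and 19.3 in ap > NelfAi, 17.0, 15.3 and 24.0 in the ap > Yki libraries and 34.9, 30.9 and 31.0 in the tumorous ones. The lowest tumorous value exceeded all values of the other genotypes. The difference from ap > Yki was 0.79 (SE 0.195, adjusted p = 0.0225 by limma, kept in 5 of 10 fits). Among the fits without an ap > Yki or tumorous library, only that without ap > Yki 3 kept the call. The largest subunit, RpI1, read 35.4 and 38.6, then 36.2 and 41.2, then 39.3, 35.6 and 49.7, and 61.9, 48.9 and 47.3 over the same genotypes. Tumorous and ap > Yki libraries overlapped for RpI1 (0.34, SE 0.183, adjusted p = 0.225). Tif-IA, the initiation factor that recruits the polymerase to ribosomal DNA, was at 48.5, 44.3 and 38.2 in the ap > Yki libraries and 58.8, 68.2 and 55.3 in the tumorous ones. These groups did not overlap, but the difference of 0.47 (SE 0.222) was not called (adjusted p = 0.171).

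Small subunit assembly held the other 4 calls, out of 10 members, with a median difference of 0.69. In 9 of the 10 every tumorous library lay above every ap > Yki library, beside 21.8% of all genes. The study had listed all 10 but bys, so this median is not set against those of the other roles. CG12301 (dm6 3L:15580800-15583373) stood at 6.97 and 6.21 in ap > GFP, 10.3 and 9.49 in ap > NelfAi, 5.18, 5.13 and 7.71 in the ap > Yki libraries and 12.5, 15.9 and 13.6 in the tumorous ones. Its ap > Yki values fell to both sides of the control values, and its ap > NelfAi values lay between the control and the tumorous ones. The difference between tumorous and ap > Yki was 1.17 (SE 0.197, adjusted p = 0.00381 by limma, kept in 10 of 10 fits).

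RIOK1 (dm6 3L:11646234-11648474) encodes an atypical kinase that acts in late maturation of the small subunit in yeast and human cells. Its reads were few, and it stood at 3.01 and 2.86 in ap > GFP, 5.20 and 2.76 in ap > NelfAi, 3.72, 3.75 and 3.76 in the ap > Yki libraries and 8.02, 9.05 and 6.93 in the tumorous ones. The tumorous values stood apart from all the others. The difference from ap > Yki was 0.99 (SE 0.227, adjusted p = 0.0158 by limma, kept in 8 of 10 fits). The call was lost without ap > Yki 1 or without ap > Yki+NelfAi 2.

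Mat89Ba (dm6 3R:16268329-16272415) is the fly homolog of NOL6, a component of the small subunit processome, the large particle that forms on the nascent precursor. It read 21.4 and 24.9 in ap > GFP, 24.4 and 30.9 in ap > NelfAi, 15.1, 17.1 and 29.5 in the ap > Yki libraries and 46.3, 36.9 and 37.9 in the tumorous ones. The ap > Yki libraries spread widely, with library 3 above and libraries 1 and 2 below the control. The log2 fold change was 1.01 (SE 0.252, adjusted p = 0.0234 by limma, kept in 5 of 10 fits). Among the fits without an ap > Yki or tumorous library, only that without ap > Yki 3 kept the call.

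CG11920 (dm6 3R:25074877-25076382), the homolog of yeast IMP4, another processome protein, was at 11.8 and 17.3 in ap > GFP, 22.8 and 12.7 in ap > NelfAi, 14.2, 15.6 and 12.03 in the ap > Yki libraries and 25.5, 25.9 and 26.9 in the tumorous ones. The tumorous values were nearly identical and above all others. The difference was 0.89 (SE 0.239, adjusted p = 0.0316 by limma), and the call was kept in 4 of 10 fits. Those 4 left out a library of neither genotype compared, and the call was lost without any ap > Yki or tumorous library.

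The other small subunit members were not called here. They were l(3)72Dn (0.73, adjusted p = 0.0642), CG8064 (0.66, adjusted p = 0.0678), Bka (0.65, adjusted p = 0.121), CG7246 (0.54, adjusted p = 0.166), CG3071 (0.40, adjusted p = 0.298) and bys, the bystin gene (0.39, adjusted p = 0.204). For l(3)72Dn the ap > Yki values were 19.4, 22.1 and 19.6 and the tumorous values 34.7, 33.1 and 34.3. For CG8064 they were 12.9, 12.1 and 11.98 against 18.9, 19.0 and 21.3. In both genes the replicates of a genotype lay close together and the genotypes far apart, but ap > NelfAi 1 (31.6 and 19.2) was near the tumorous libraries and ap > NelfAi 2 (16.7 and 10.5) near the control. DESeq2 on the recovered reads called both of them, 8 members in all, and edgeR called the same 6 as limma.

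**Figure D2:**
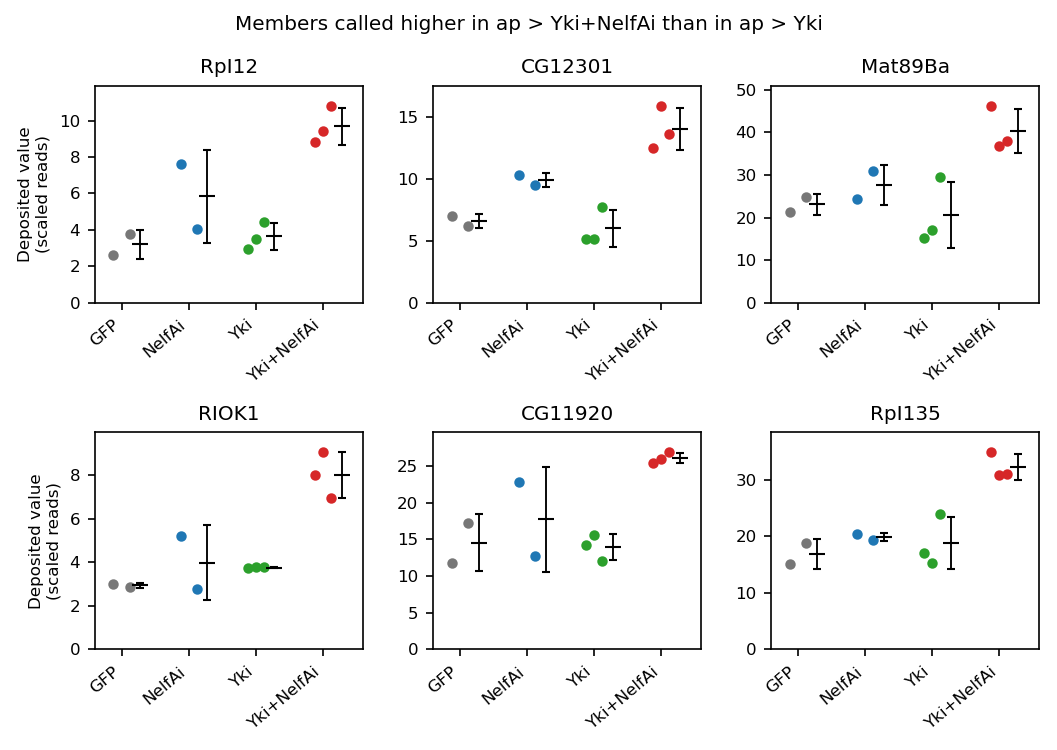
Deposited value of the 6 members called higher in the tumorous libraries than in ap > Yki. Points are libraries, and the black bars beside them give the mean ± SD (n = 2 for GFP and NelfAi, n = 3 for Yki and Yki+NelfAi). In each panel the lowest tumorous library lies above the highest ap > Yki library, from 6.93 against 3.76 for RIOK1 to 36.9 against 29.5 for Mat89Ba.

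Members of large subunit assembly held 0 of the 6 calls, with a median of 0.38 over 10 genes, all listed by the study but Ns1, Ns3 and pit. The count was 0 by edgeR and DESeq2 too. By limma 3 of the 10 were at an unadjusted p under 0.05, beside 2598 of the 7858 genes tested. The number called was 2, CG13185 and Ns2, without ap > Yki 3, and 1, CG13185, with the length trend removed. Ns2, a GTPase of the nucleostemin family, stood at 48.4 and 49.6 in ap > GFP, 62.1 and 49.9 in ap > NelfAi, 68.6, 59.1 and 70.6 in the ap > Yki libraries and 98.3, 105 and 88.5 in the tumorous ones. Its values formed 3 separate steps, from control to ap > Yki to tumorous, and the last step of 0.56 (SE 0.158) passed the p threshold (adjusted p = 0.0383) but was under 1.5-fold. Nmd3, the adaptor that exports the large subunit from the nucleus, was at 21.1, 22.7 and 19.3 in the ap > Yki libraries and 32.1, 30.2 and 32.5 in the tumorous ones (0.58, SE 0.194, adjusted p = 0.0681). eIF6, which keeps the large subunit from joining the small one too early, was at 58.2, 59.3 and 42.8 against 70.8, 73.1 and 68.5 (0.42, adjusted p = 0.191). Neither was called, although the groups did not overlap. The factors that later release eIF6 were not called either: CG8549, the homolog of human SBDS, differed by 0.46 (adjusted p = 0.279) and CG33158, the homolog of the GTPase EFL1, by 0.11 (adjusted p = 0.704). The other nucleostemin genes, Ns3 (0.35) and Ns1 (0.16), the DEAD-box helicase pit (0.23) and Non1 (0.32) were not called either, with adjusted p of 0.143 to 0.626.

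The snoRNP core proteins, which make up the catalytic particles themselves, had a median of 0.16 over 4 genes, none of them listed by the study. Only nop5, a scaffold of the box C/D particles that guide methylation of ribosomal RNA, separated the genotypes. It stood at 64.6 and 80.5 in ap > GFP, 84.2 and 75.1 in ap > NelfAi, 84.5, 72.3 and 69.8 in the ap > Yki libraries and 108, 102 and 120 in the tumorous ones (0.54 against ap > Yki, SE 0.160, adjusted p = 0.0447, under 1.5-fold). Its partner Nop56 read 74.7 and 97.5 in ap > GFP, 128 and 76.3 in ap > NelfAi, 97.3, 82.6 and 76.5 in the ap > Yki libraries and 93.8, 92.0 and 101 in the tumorous ones. Here the highest value was that of ap > NelfAi 1 and all genotypes overlapped (0.17, SE 0.215, adjusted p = 0.637). Fib, the methyltransferase fibrillarin of the same particles, stayed between 39.6 and 53.2 in all 10 libraries (0.16, SE 0.158, adjusted p = 0.534). Nop60B, the pseudouridine synthase of the box H/ACA particles (dyskerin in human), ranged from 195 to 283, both extremes in ap > Yki libraries (0.05, SE 0.171, adjusted p = 0.880). The annotation places 6 snoRNAs on the same strand within exons of Nop60B, each covering 2.43% to 2.87% of its exonic bases, and whether their reads were counted with its own is not stated.

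Among the other nucleolar members, mbm (mushroom body miniature, 0.42, adjusted p = 0.0937), vito (viriato, 0.39, adjusted p = 0.429) and Nnp-1 (0.18, adjusted p = 0.466) were not called, and neither was Nopp140, a chaperone of snoRNPs (0.65, SE 0.232, adjusted p = 0.0819). Nopp140 read 87.4 and 92.3 in ap > GFP, 51.5 and 86.2 in ap > NelfAi, 49.3, 55.3 and 78.2 in the ap > Yki libraries and 90.0, 91.5 and 102 in the tumorous ones. It was thus at the control level in the tumorous libraries and lower in ap > Yki, most of all in libraries 1 and 2.

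**Figure D3:**
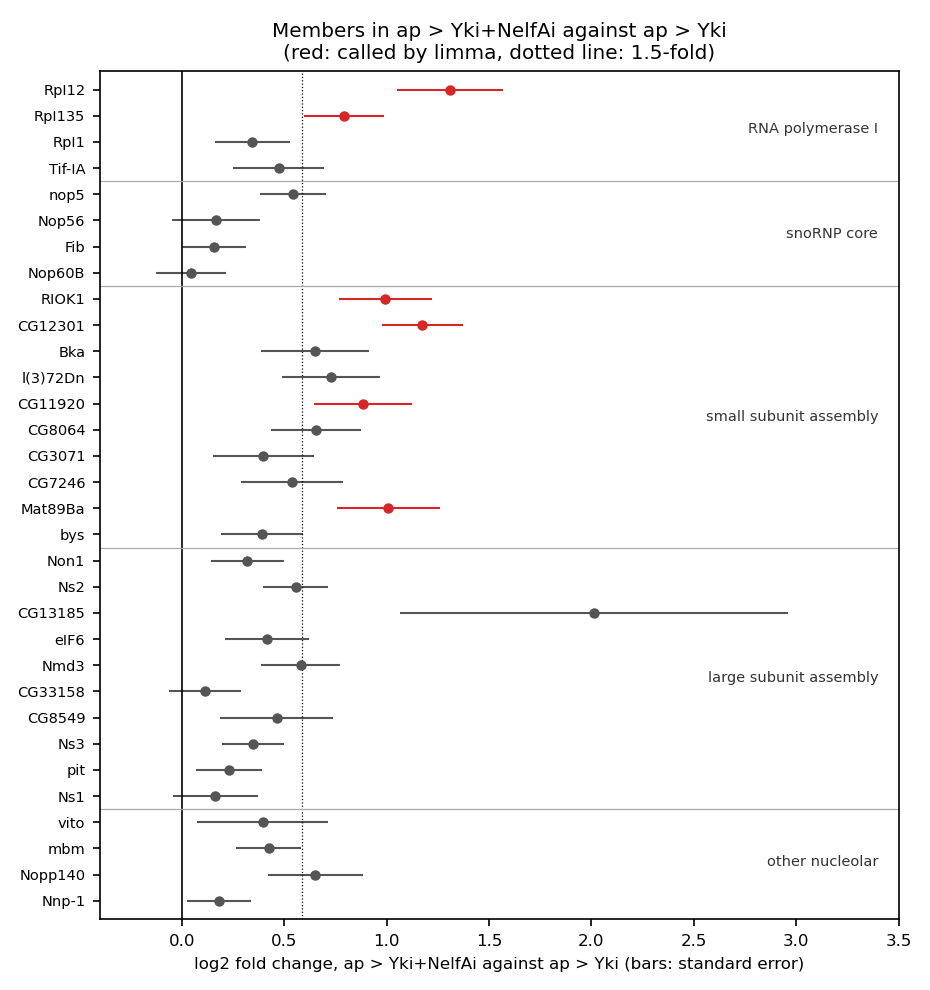
The log2 fold change of each member, tumorous against ap > Yki, with its standard error from limma, grouped by role. Red marks the 6 called members and the dotted line 1.5-fold. All 32 points lie to the right of 0, from 0.05 (Nop60B) to 2.01 (CG13185), whose standard error of 0.947 is the widest.

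The number called depended on single libraries. It was 8 without ap > Yki 3, 2 without ap > Yki 1 or without ap > Yki+NelfAi 2, and 3 without ap > Yki 2, ap > Yki+NelfAi 1 or ap > Yki+NelfAi 3. It rose to 10 without either or both of the ap > NelfAi libraries, which are in neither genotype compared but enter limma's estimate of the spread. The muscle sums were lower in every tumorous library than in every ap > Yki library, as given above, while the salivary gland and tracheal sums overlapped. The fall in the muscle sum was mostly in Mlc2 (means of 66.7 in ap > Yki and 17.0 in the tumorous libraries) and Act57B (16.5 and 5.255). Mhc changed little (9.12 and 8.76) and bt was higher in the tumorous libraries (2.29 and 3.92). The 6 adepithelial myoblast markers summed to 66.4 to 152 in ap > Yki and 46.1 to 56.9 in the tumorous libraries.

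Against the control, ap > GFP, the 16 members listed by the study had differences of 0.65 (CG8549) to 2.37 (Non1), with a median of 0.84, and every tumorous library lay above both control libraries in each. That is the comparison that chose them, in which 33.3% of all genes had every tumorous library above the control, 31.0% had every one below, and 52.0% had a higher mean. After Non1 the largest were RIOK1 (1.30), CG12301 (1.03), Ns2 (0.98), Bka (0.94) and l(3)72Dn (0.90), and the smallest after CG8549 was CG33158 (0.66).

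The 16 members added by function were tested in this comparison. Of these 4 were called higher and 0 lower, beside 10% and 12.1% of all genes, their median was 0.40, and 15 had a higher mean. The called ones were RpI12 (1.48, SE 0.290, adjusted p = 0.00643 by limma, kept in 9 of 10 fits), RpI135 (0.92, SE 0.218, adjusted p = 0.0154, 7 of 10), bys (0.71, SE 0.222, adjusted p = 0.0468, 2 of 10) and nop5 (0.60, SE 0.179, adjusted p = 0.0399, 3 of 10). Bystin, a small subunit factor, stood at 12.1 and 12.4 in ap > GFP, 16.5 and 10.96 in ap > NelfAi, 18.4, 13.6 and 14.5 in the ap > Yki libraries and 18.5, 22.6 and 20.2 in the tumorous ones. The tumorous values lay above all others, though only just above ap > Yki 1. The count fell to 0 without ap > GFP 1, to 1 without ap > GFP 3 or ap > Yki+NelfAi 1, and to 2 without ap > Yki 1, ap > Yki 2, ap > Yki+NelfAi 2 or ap > Yki+NelfAi 3.

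The remaining added members were not called. The difference was 0.59 for vito (adjusted p = 0.278), which did not overlap with the control. RpI1 was at 0.50 (adjusted p = 0.115), Ns3 at 0.47 (0.0769), Tif-IA at 0.43 (0.258), mbm at 0.37 (0.164), pit at 0.28 (0.305) and Ns1 at 0.27 (0.454). The snoRNP proteins Nop56 (0.16, SE 0.240), Fib (0.13, SE 0.176) and Nop60B (0.08, SE 0.192) and the chaperone Nopp140 (0.07, SE 0.259) were closest to 0. Nnp-1, the homolog of yeast RRP1, was the only member with a lower tumorous mean (-0.19, SE 0.177, adjusted p = 0.493). It read 46.9 and 49.0 in ap > GFP, 45.9 and 44.2 in ap > NelfAi, 36.5, 34.8 and 39.7 in the ap > Yki libraries and 36.5, 41.0 and 49.3 in the tumorous ones, which overlapped with the values of every other genotype. Among the roles made up of added members, the median was 0.71 for RNA polymerase I, 0.22 for other nucleolar genes and 0.15 for the snoRNP core. The assembly roles hold mostly listed members, whose choice sets their medians in this comparison, and are not set against these.

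In ap > Yki against ap > GFP, which asks what Yki did alone, 1 member was called, Non1, and 0 were lower, beside 2.41% of all genes called higher and 1.64% lower. Of the members 22 had a higher mean and 10 a lower one (48.9% of all genes were higher), and the median was 0.14, or 0.06 over the 16 added by function. Every ap > Yki library lay above both controls in 8 members (21.8% of all genes) and below them in 2, Nopp140 and Nnp-1 (19.3%).

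Non1 (dm6 2R:9396265-9398734) encodes the homolog of yeast NOG1, a GTPase that accompanies the large subunit from the nucleolus to the cytoplasm. It stood at 177 and 176 in ap > GFP, 240 and 193 in ap > NelfAi, 748, 634 and 823 in the ap > Yki libraries and 1081, 888 and 790 in the tumorous ones. Both genotypes with Yki lay far above both without it, while they overlapped with each other. The difference between ap > Yki and ap > GFP was 2.05, or 4.13-fold (SE 0.198, adjusted p = 0.00114 by limma, kept in 10 of 10 fits). Between tumorous and ap > Yki discs it was 0.32 (SE 0.177, adjusted p = 0.246), so a further rise was not called. With ap > NelfAi as the baseline the tumorous discs differed by 2.08 (adjusted p = 0.000194), and ap > NelfAi differed from ap > GFP by 0.28 (adjusted p = 0.968).

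After Non1, the ap > Yki differences of the other members were CG33158 0.55 (SE 0.196, adjusted p = 0.1703), Ns2 0.42 (adjusted p = 0.247), eIF6 0.41 (adjusted p = 0.402) and CG3071 0.40 (adjusted p = 0.518), none of them called. CG33158 was at 13.7 and 13.5 in ap > GFP, 17.3 and 13.5 in ap > NelfAi, 23.4, 16.8 and 21.0 in the ap > Yki libraries and 22.6, 22.2 and 20.9 in the tumorous ones. Its ap > Yki and tumorous values overlapped while both lay above the control, which also held for Non1 and for CG7246 (4.54 and 4.64 in the control, 5.18, 6.74 and 4.97 with Yki alone, and 6.59, 8.09 and 10.8 in the tumorous libraries). On the lower side were Nopp140 (-0.58, SE 0.259, adjusted p = 0.280) and Nnp-1 (-0.37, SE 0.177, adjusted p = 0.315). The 4 RNA polymerase I genes differed by -0.05 to 0.17 and the 4 snoRNP genes by -0.02 to 0.06.

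Depletion of Nelf-A without Yki gave 0 called members by limma, edgeR and DESeq2, beside 0.0255% of all genes called higher and 0.0509% lower by limma. By limma 2 members, CG12301 and RpI12, were at an unadjusted p under 0.05, beside 301 of the 7858 genes tested. The mean was higher in 29 members and lower in 3 (46.8% of all genes were higher), and the median was 0.20. Both ap > NelfAi libraries lay above both controls in 7 members (9.99% of all genes) and below them in 2 (12.8%). The means hide the spread between the libraries described above. For vito they read 16.7 and 6.37, where ap > GFP had 6.39 and 9.17, and for Bka 26.2 and 12.5, where ap > GFP had 15.4 and 12.9. In both genes library 1 was the highest of the libraries without Yki and library 2 lay just below the lower control. For CG8064, RpI12 and vito the log2 difference was 0.81, 1.15 and 1.07 without ap > NelfAi 2. Without ap > NelfAi 1 it was -0.04, 0.31 and -0.25 for the same genes. In those fits ap > NelfAi is a single library, assumed to vary like the libraries of the other genotypes. Fat body markers moved with library 1: the 5 of them summed to 258 there, 43.1 in ap > NelfAi 2 and 12.6 to 166 elsewhere, and the muscle sum of 1114 was also that library's. Their part in its member values was not tested.

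**Figure D4:**
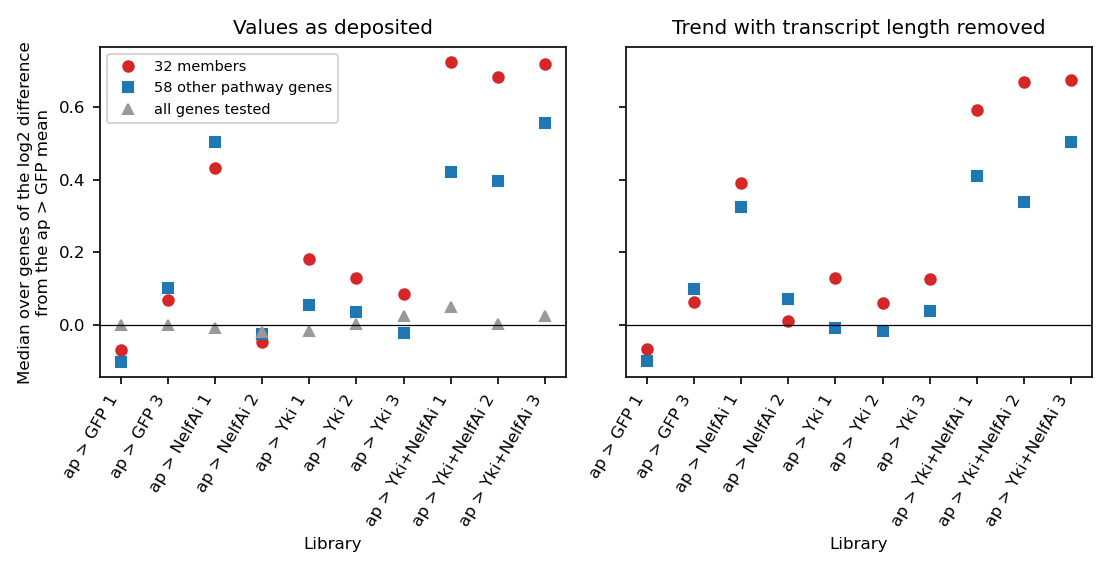
Median over genes of the log2 difference from the ap > GFP mean in each library, for the 32 members (circles), 58 other ribosome biogenesis genes (squares) and, in the left panel only, all genes tested (triangles). Left, values as deposited, and right, after each library's trend with transcript length was removed. In the right panel the members lie at 0.59 to 0.67 in the tumorous libraries, 0.06 to 0.13 in ap > Yki and 0.39 and 0.01 in ap > NelfAi.

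Removing each library's trend with transcript length left that order as it was. The member medians became 0.59, 0.67 and 0.67 in the tumorous libraries, 0.13, 0.06 and 0.13 in the ap > Yki libraries and 0.39 and 0.01 in those of ap > NelfAi, which thus still differed. The member on which length bore most was CG13185, the homolog of midasin, a very large ATPase that removes assembly factors from the large subunit. Its transcript of 16988 bases is longer than that of all but 13 genes, against a median of 2130 over the members. As deposited it read 18.5 and 14.2 in ap > GFP, 3.52 and 34.7 in ap > NelfAi, 2.75, 3.33 and 32.2 in the ap > Yki libraries and 43.2, 21.4 and 27.6 in the tumorous ones. Replicates of a genotype differed by up to about the whole range of the gene, and the high values within ap > NelfAi and ap > Yki fell in the libraries in which long transcripts were high. With the trend removed its values were 14.0 and 13.6, then 18.3 and 16.4, then 4.42, 5.08 and 14.6, and 25.2, 21.6 and 25.1. The tumorous values then lay above all others. Its difference from ap > Yki was 2.01 (SE 0.947, adjusted p = 0.172) as deposited and 1.71 (adjusted p = 0.00425) with the trend removed, where it was called.

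Tumorous discs were also set against ap > NelfAi discs, which carry the same RNAi construct without added Yki, although Nelf-A was near the control level in 1 of their 2 libraries. Of the members 3 were called higher and 0 lower, beside 8.36% and 9.11% of all genes: Non1 as given above, Ns2 (0.80, SE 0.176, adjusted p = 0.0135) and RIOK1 (0.97, SE 0.253, adjusted p = 0.0278). The 3 of 32 members are close to the share of all genes called higher. All 3 had been listed by the study, and of the 16 members added by function 0 were called. The median was 0.47, and 30 members had a higher mean, with Nop56 (-0.05) and Nnp-1 (-0.10) the exceptions. Without ap > NelfAi 1 the count was 11, without ap > NelfAi 2 it was 3, and without ap > Yki+NelfAi 2 it was 1, the first 2 of these again with a single ap > NelfAi library.

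Whether depletion of Nelf-A made a different change with Yki than without it was tested as an interaction. No member was called (0 by limma, edgeR and DESeq2), beside 0.318% of all genes called higher and 0.942% lower. By limma 1 member was at an unadjusted p under 0.05, beside 1160 of the 7858 genes tested. That member was Nopp140, at 1.08 (SE 0.367, adjusted p = 0.212): its mean in ap > NelfAi was 68.8 ± 24.5 against 89.84 ± 3.453 in ap > GFP (n = 2 each), and in the tumorous libraries 94.4 ± 6.30 against 60.95 ± 15.2 in ap > Yki (n = 3 each). The members' median was 0.28, with 27 above 0, and the largest values beside that of Nopp140 were those of CG13185 (2.51, SE 1.498), Mat89Ba (0.76, SE 0.398), RIOK1 (0.67, SE 0.358) and CG11920 (0.64, SE 0.377). Without ap > NelfAi 2 the interaction of Nopp140 was called, with 1 member in all, in a fit where a single library stands for ap > NelfAi. The yki transcript itself had an interaction of 2.82 (SE 0.498, adjusted p = 0.0332 by limma, kept in 4 of 10 fits). Its values without added Yki entered this too, at 265 and 307 in ap > GFP and 187 and 75.0 in ap > NelfAi. The calls against ap > Yki described above are therefore not shown to differ from those of depletion without Yki.

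**Figure D5:**
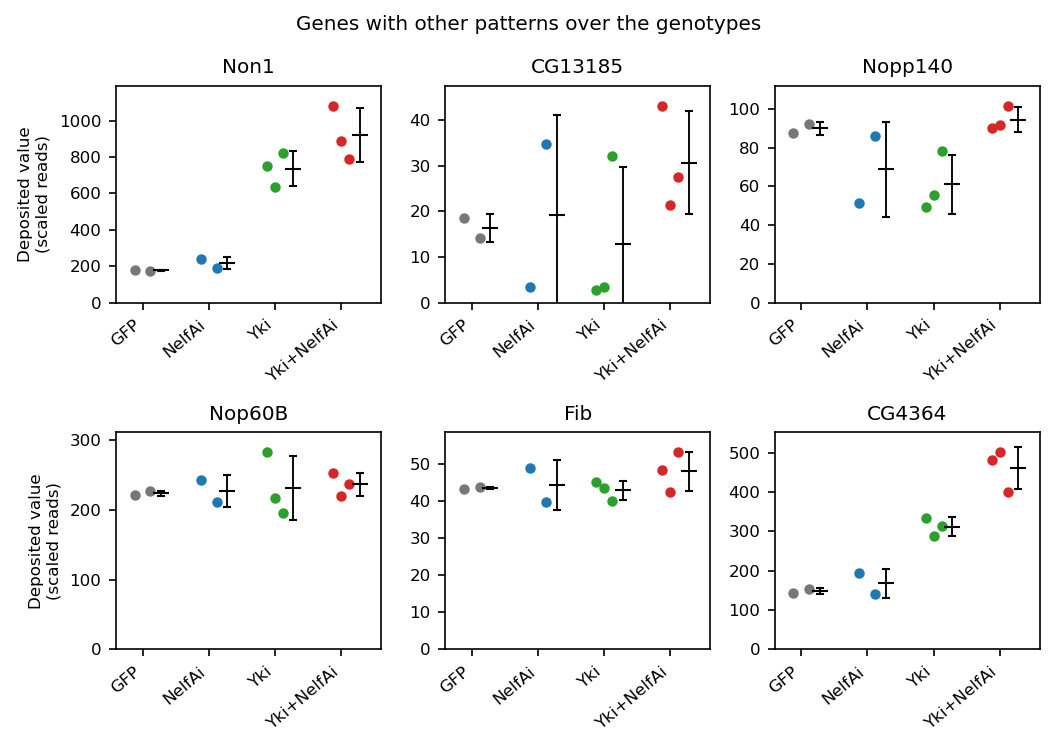
Deposited value of 5 members that did not follow the common course, or followed it weakly, and of CG4364, which is not a member. Points are libraries and black bars the mean ± SD (n = 2 for GFP and NelfAi, n = 3 for Yki and Yki+NelfAi), with bars of CG13185 that reach below 0 ending at the axis. Non1 and CG4364 were already higher in ap > Yki, CG13185 scattered from 2.75 to 43.2, Nopp140 was lowest in ap > Yki 1 (49.3), and Nop60B and Fib overlapped in all genotypes.

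Other genes of the pathway were examined with a list of 61, of which 58 were in the table. In the tumorous discs 14 of these were called higher than in ap > Yki and 0 lower, beside 7.20% and 10.2% of all genes, with a median of 0.47 and 53 higher means. Against ap > GFP the counts were 11 and 0, beside 10% and 12.1% of all genes, with a median of 0.46 and 54 higher means. In both comparisons, which share the tumorous libraries, 8 genes were called. How many of all genes were called in both was not counted, so the 8 have no share to be set against. One of the 8 is Dbp73D, a DEAD-box helicase gene, picked as an example after its values were seen, at 6.71 and 8.26 in ap > GFP, 11.2 and 8.88 in ap > NelfAi, 7.39, 7.84 and 10.4 in the ap > Yki libraries and 19.8, 18.1 and 17.5 in the tumorous ones. The count of 11 was 2 without ap > GFP 1, 4 without ap > GFP 3 or ap > Yki+NelfAi 2, 5 without ap > Yki+NelfAi 1 or ap > Yki+NelfAi 3, 6 without ap > Yki 1 and 7 without ap > Yki 2.

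By difference from ap > Yki, the largest on that list and the Myc network list were CG2875 (1.20, adjusted p = 0.0146), dm (1.19, SE 0.701, adjusted p = 0.276) and mod (1.15, adjusted p = 0.0130), and the smallest were smid (-0.24), CG9107 (-0.21) and CG8611 (-0.06), none of these 3 called. The gene mod encodes the nucleolar protein Modulo and had a different course from the members: 220 and 249 in ap > GFP, 259 and 220 in ap > NelfAi, 128, 110 and 228 in the ap > Yki libraries and 342, 333 and 308 in the tumorous ones. For Myc itself, dm, the libraries read 26.2 and 23.0 in ap > GFP, 2.68 and 31.97 in ap > NelfAi, 14.8, 25.1 and 35.4 in the ap > Yki libraries and 73.6, 49.1 and 44.9 in the tumorous ones. All 3 tumorous values were the highest of the 10, but ap > NelfAi and ap > Yki libraries spread in the same order as for CG13185, and dm was not called.

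In ap > Yki alone 1 gene of the list was called higher and 0 lower, beside 2.41% and 1.64% of all genes. It was CG4364, the homolog of Pescadillo, a large subunit factor. It stood at 142 and 153 in ap > GFP, 193 and 141 in ap > NelfAi, 334, 288 and 314 in the ap > Yki libraries and 481, 501 and 400 in the tumorous ones. It rose by 1.08 with Yki (adjusted p = 0.0161) and by 1.64 in the tumorous discs against ap > GFP (adjusted p = 0.000451). The median of the list in ap > Yki against ap > GFP was 0.00, with 29 genes higher and 29 lower. In ap > NelfAi against ap > GFP 0 of the 58 were called by limma, beside 0.0255% of all genes higher and 0.0509% lower, and the median was 0.21. At an unadjusted p under 0.05 by limma was 1 of them, beside 301 of the 7858 genes tested. By library that list stood at 0.42, 0.40 and 0.56 in the tumorous libraries and at 0.50 and -0.02 in ap > NelfAi. Its ap > NelfAi 1 median was thus above those of ap > Yki+NelfAi 1 and 2, whereas the member median of 0.43 there was below all tumorous ones. With the length trend removed the list stood at 0.41, 0.34 and 0.50 in the tumorous libraries and 0.33 in ap > NelfAi 1. Between tumorous and ap > NelfAi discs 5 of the 58 were called higher and 0 lower, beside 8.36% and 9.11% of all genes, with a median of 0.20.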

How the data were processed

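The authors made RNA-seq libraries from pooled wing discs, aligned the reads with HISAT and deposited 1 table of a signal: for each gene, its reads in a library over a scaling factor specific to the library. The submitters' processing notes name the build dm6. Strand use in counting and the annotation are not given in the sources used here. In every library 1 read was worth a constant amount (0.0464 to 0.0839), and dividing by it gave whole reads for 100% of the deposited values (tolerance 0.001 read). The 5 entries for unassigned reads, 28.4% to 36.5% of a library, were left out. Deposited tables with the authors' fold changes, p-values and FDR were not used.

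Because the deposited values are scaled, limma (3.58.1, with a variance trend) on log2(value + 0.5) was the main test, in 1 model of 4 genotypes over 10 libraries, and genes needed a value of 1 or more in 2 or more libraries. The interaction was (ap > Yki+NelfAi minus ap > Yki) minus (ap > NelfAi minus ap > GFP). Log2 fold changes of genes with low values are understated. The p-values measure the spread between deposited samples. Replicate libraries differed by more than sampling noise (chi-square per degree of freedom 19.3 to 137), so none was counted as a copy.

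The members and lists were chosen with earlier results of these data known. All members are named. Of the other pathway and Myc network genes, the rule named the 3 largest and 3 smallest differences between tumorous and ap > Yki discs, with dm, yki and Nelf-A, and the 3 genes most correlated with the members. CG4364, mod and Dbp73D were looked at after their values were seen, mod also falling under the rule. The Myc partners Max (0.47, adjusted p = 0.128) and Mnt (0.08) and yki (1.56) gave these log2 differences between tumorous and ap > Yki discs. Promoter motifs were not analysed here.

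The alternatives were TMM and RLE scaling, edgeR (4.0.16) and DESeq2 (1.42.0) on the recovered reads, pseudocounts of 0.1 and 1, no filter, fits limited to the genotypes compared, calls without a minimum fold, a block for the replicate number, removal of the length trend (lowess, span 0.3, R 4.3.3) and each library left out. A fit without both ap > NelfAi libraries was added after seeing the data. The tests were also run on simulated counts, with the same dispersion for every gene and no length trend. The deposited libraries differ from this, so that run does not show how the tests behave on them. Gene names, coordinates, and transcript lengths came from the BDGP6 (dm6) annotation, which matched 7884 of 7987 genes.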

Additional observations from a re-analysis of the deposited data

How the results depend on the processing

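The number of members called higher in tumorous discs against ap > Yki, 6, became 10 with only the genotypes compared and 10 without both ap > NelfAi libraries, 8 with DESeq2, 9 with the length trend removed and 2 to 10 when 1 library was left out. All 6 were among those called in each of these fits except when an ap > Yki or tumorous library was left out. Removing the length trend also raised the number of all genes called higher, from 566 to 911 against ap > Yki and from 657 to 953 against ap > NelfAi. The rise in members called there is thus not particular to the members. For the fits with fewer libraries and DESeq2, counts over all genes are not given here. The 3 called against ap > NelfAi became 1 with only the genotypes compared, 7 with the length trend removed and 1 to 11 with 1 library left out. For ap > NelfAi against ap > GFP the range on leaving out 1 library was 0 to 3, and for the interaction 0 to 1. For ap > Yki against ap > GFP, 1 member, Non1, was called in every alternative run. The 4 added members called against ap > GFP became 2 with RLE scaling, 2 with edgeR and 0 to 4 with 1 library left out, and the 11 other pathway genes became 17 with only the genotypes compared and 2 to 16.

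The replicate numbers did not pair the samples: correlations of deviations between same-numbered libraries ran from -0.43 to 0.59. With the replicate number as a block the counts were 5 against ap > Yki (CG11920 was lost, adjusted p = 0.0787), 1 against ap > NelfAi, 2 of the added members and 6 of the other pathway genes against ap > GFP, and the other counts did not change. CG33158 against ap > GFP moved from 0.66 to 0.73 under the block.

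Of single values, the difference of CG33158 between tumorous and ap > Yki discs turned to -0.0195 without ap > Yki 2 (range -0.0195 to 0.21 with 1 library left out), that of Nop60B to -0.0694 without ap > Yki 3 and -0.00269 without ap > Yki+NelfAi 1 (range -0.0694 to 0.20), and that of Nop56 against ap > GFP to -0.0293 without ap > GFP 1 (range -0.0293 to 0.35). None had been called. The cause of these changes was not tested, except that leaving out a library leaves fewer samples. A tally covered the differences of all members between tumorous and ap > Yki and between tumorous and ap > GFP discs, those called against ap > NelfAi and those at least 0.40 in size in ap > Yki against ap > GFP. In it 1465 values were kept, 25 passed the threshold newly, 56 lost it, 4 changed direction and 1 moved. Kept means the same direction and side of the threshold. For the 16 listed members against ap > GFP, which were not tested, it means a shift under the larger SD of the genotypes compared, and moved a larger shift. The other comparisons were less stable: on leaving out some 1 library the direction changed for 19 of the 32 members in ap > NelfAi against ap > GFP, 14 in ap > Yki against ap > GFP, 7 in tumorous against ap > NelfAi discs and 16 in the interaction. TMM and RLE scaling moved the median of all genes by less than 0.1.

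The precision is limited by 2 libraries each of ap > GFP and ap > NelfAi and by the spread between the latter. RIOK1 and RpI12 rest on as few as 45 and 41 reads in a library.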

Other observations

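Genes near Non1 on chromosome arm 2R were read as well, after the values of Non1 were seen, since it was the only member called in ap > Yki. The 6 neighbours read differed between ap > Yki and ap > GFP by -0.21 (CG33774) to 0.32 (wun) on the log2 scale, with adjusted p of 0.385 to 0.996 by limma, and none was called. Against ap > Yki, 2 of them were called lower in the tumorous discs, the reverse of the direction of all members in that comparison. Myd88 was lower too but was not called (-0.68, adjusted p = 0.0961 by limma). The 2 called were wun (-0.89, adjusted p = 0.00453, kept on leaving out any 1 of the 10 libraries) and the gene at dm6 2R:9390165-9395281 (-1.05, adjusted p = 0.0439, kept on leaving out 2 of the 10). The latter gene stood at 29.5 and 23.2 in ap > GFP and 2.18 and 3.74 in ap > NelfAi (-2.98, adjusted p = 0.0416, kept on leaving out 2 of the 10).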
